A study of Mus musculus with 6 samples.

Results

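The 9 genes described here belong to hepatic gluconeogenesis and to the glucagon pathway of the fasted liver. They are Gcgr, Crtc2, Creb3l3, Ppargc1a, Pck1, Fbp1, G6pc, Slc37a4 and Kiss1. They were taken by symbol from a table of 55414 annotated genes, in which each symbol matched 1 row. The set was chosen from this pathway with the differences between the groups in the same FPKM values already known, so the levels and tests of its members are descriptions of these libraries and support nothing by themselves. All 9 had a mean of at least 1 FPKM (fragments per kilobase of transcript, scaled to the mapped fragments of the library) and were among the 11134 genes tested. Kiss1 reached that mean only through the group in which it was high.

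RNA came from the livers of male mice, 12 weeks old, after 16 h of fasting. The control group had the genotype Gapfl and drank plain water. The other 2 groups had the genotype GapAlb KO, a knockout of Gapdh described as hepatocyte-specific, and drank either plain water or water with 5% serine. A group was sequenced as 2 libraries of pooled RNA, with 2 mice in each pool, so SD and p-values describe the spread between pools. Beyond these genotype names, the labels do not describe the promoter behind the deletion, its age of onset, or whether controls carried a recombinase. Controls on serine were not analysed here, so serine was compared within knockouts only, and its comparison with controls joins genotype and drinking water.

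In the fasted liver, glucagon binds its receptor on hepatocytes and raises cyclic AMP. Cyclic AMP activates protein kinase A, which phosphorylates the transcription factor CREB, while the CREB co-activator Crtc2 loses its own inhibitory phosphorylation and enters the nucleus. Together they drive the transcription of Ppargc1a and of the gluconeogenic enzymes. These enzymes convert lactate, glycerol and amino acids to glucose. Gapdh stands in the middle of the route and runs in the reverse direction of glycolysis, above the steps of enolase, phosphoglycerate mutase and phosphoglycerate kinase and below those of Fbp1, G6pc and Slc37a4.

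Gapdh, the targeted gene, measured 1091.44 and 1390.84 FPKM in controls against 23.75 and 17 FPKM in knockouts given water and 20 and 23.52 FPKM in those given serine. Summed FPKM was 787332.1 to 869450.7 per library, and the spacing of low values implied 17300000 to 19250000 fragments per library. The 2 libraries of a group correlated across genes at 0.965 to 0.97. Hepatocyte markers summed to 53990 and 59570 FPKM in controls and 47710 and 56580 FPKM in knockouts on water, which overlapped. On serine they summed to 51600 and 52960 FPKM, below both controls. The highest single value of the list was 43649.87 FPKM, and the 5 hepatocyte markers did not move together. Against controls 2 were higher and 3 lower on water (log2 -0.304 to 1.204), and likewise on serine (-0.537 to 1.229). Tat, a hepatocyte marker, also stands in the list of cyclic AMP and fasting targets described below. Endothelial markers were higher in all 4 knockout libraries (80.62 to 88.48 FPKM) than in controls (68.44 and 75.8 FPKM). Lymphocyte markers summed to 0.51 to 1.46 FPKM in the 4 knockout libraries against 1.5 and 2.61 FPKM in controls. These values lie near the floor: 0 of the 4 lymphocyte markers reached the mean needed for testing, and their highest single value was 1.34 FPKM. Stellate cell markers on serine (81.9 and 92.11 FPKM) lay above every other library (53.11 to 78.18 FPKM). Cholangiocyte markers in knockouts on water (8.72 and 13.46 FPKM) lay below both controls (16.54 and 22.14 FPKM), and on serine (10.41 and 20.35 FPKM) they overlapped them. Sums for Kupffer cells and macrophages were 56.83 to 81.63 FPKM and for red blood cells 735.7 to 1605 FPKM, and in both lists the serine libraries lay above the controls while the knockouts on water overlapped them. The 7 pancreas markers summed to 18.76 and 26.63 FPKM in controls, 8.92 and 10.74 FPKM in knockouts on water and 13.88 and 15.03 FPKM on serine. Gcg, Ins1 and Ins2 were listed at 0 in all 6 libraries. Only 1 of the 7 was tested, and the highest single value of the list was 23.38 FPKM. The part of these sums in the values of the 9 genes was not tested. None of the markers was called in the comparison of knockouts with controls on water, and 1 cholangiocyte marker, Sox9, was called lower in knockouts on serine than in controls. In bulk liver RNA, fewer cells of a type and less RNA per cell cannot be told apart.

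The promoters of 3 members that were higher in both knockout libraries on water than in both controls are shown because the classical hormone response elements of this pathway lie upstream of such genes. They are RefSeq windows on GRCm38.p6 from 250 bases before to 50 bases after the start of the gene, written 5′ to 3′ on the strand of the gene. Capitals mark the short form of the cyclic AMP response element (TGACG, here read on the other strand as CGTCA) in Pck1 and Ppargc1a, and the core of the insulin response element (TGTTTTG) in G6pc.
Pck1, chr2:173152823-173153122, plus strand: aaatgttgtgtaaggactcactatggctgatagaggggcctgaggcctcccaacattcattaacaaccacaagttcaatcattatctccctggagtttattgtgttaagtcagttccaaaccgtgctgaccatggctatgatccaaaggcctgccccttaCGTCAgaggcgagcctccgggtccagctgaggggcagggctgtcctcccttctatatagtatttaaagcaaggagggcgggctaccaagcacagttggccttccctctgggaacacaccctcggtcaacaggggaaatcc
Ppargc1a, chr5:51567676-51567975, minus strand: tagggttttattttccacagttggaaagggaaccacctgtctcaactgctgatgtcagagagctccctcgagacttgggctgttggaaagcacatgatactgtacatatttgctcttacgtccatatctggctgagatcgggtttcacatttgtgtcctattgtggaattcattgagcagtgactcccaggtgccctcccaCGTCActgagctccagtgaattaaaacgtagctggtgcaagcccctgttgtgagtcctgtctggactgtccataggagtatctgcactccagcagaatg
G6pc, chr11:101367466-101367765, plus strand: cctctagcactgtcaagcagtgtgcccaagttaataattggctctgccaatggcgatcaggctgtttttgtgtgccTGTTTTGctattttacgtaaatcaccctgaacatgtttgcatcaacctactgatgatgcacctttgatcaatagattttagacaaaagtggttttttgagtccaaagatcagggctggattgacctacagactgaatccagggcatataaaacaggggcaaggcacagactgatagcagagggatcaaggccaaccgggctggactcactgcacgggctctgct

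The short element began 90 bases before the start of Pck1 and 49 bases before that of Ppargc1a, counted from the upstream end of the match. The insulin response core began 174 bases before the start of G6pc. The RefSeq table held windows for 8 of the 9 genes, with 11 windows in all, and none for Crtc2. Searched on both strands, the short element was present in 6 of the 11 windows, which belong to Pck1, Slc37a4, Ppargc1a, Creb3l3 and Kiss1, and in 20.8% of all 32851 windows. The Slc37a4 windows at chr9:44396696-44396995 and chr9:44396849-44397148 overlap and share a match. It begins 61 bases before the start in the first and 214 bases before the start in the second. The insulin response core was in the windows of G6pc and Creb3l3 and in 6.28% of all windows. The full palindrome TGACGTCA, which contains the short element, was in 0 of the 11 windows and in 1.79% of all, and the forkhead motif TGTTTAC was in 0 of the 11 and in 3.65% of all. A match describes letters in a window of this length and is not a measured binding site.

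Gcgr encodes the glucagon receptor, a G protein-coupled receptor. It lies on the plus strand at chr11:120421525-120429812 (GRCm39, as all coordinates of genes below). Its level was 150.42 and 167.72 FPKM in the controls, 101.18 and 127.77 FPKM in knockouts on water and 143.8 and 113.02 FPKM in knockouts on serine. Both knockout libraries on water lay below both controls, as did both libraries on serine, and the 2 knockout groups overlapped. The mean of 114.5 ± 18.8 FPKM (SD, n = 2) in knockouts on water was 0.7197 times the 159.1 ± 12.23 FPKM (SD, n = 2) of controls. The difference was -0.48 on the log2 scale (SE 0.178), with an adjusted p of 0.1899 in limma with Benjamini-Hochberg adjustment over all genes tested. A long non-coding RNA on the opposite strand, Gm11789, overlaps 1086 bases of the gene. It was at 60.17 and 59.01 FPKM in controls, 40.82 and 42.36 FPKM in knockouts on water and 42.55 and 35.54 FPKM in knockouts on serine, with both knockout groups below the controls, as for Gcgr. The overlap is one of whole gene spans, and shared exonic bases were not counted. No source used here says whether counting used strand, so reads from shared bases cannot be assigned to Gcgr or Gm11789 with certainty.

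Crtc2, the co-activator of CREB that is kept in the cytoplasm by salt-inducible kinases, lies at chr3:90161470-90171432 on the plus strand. It was at 13.62 and 16.18 FPKM in controls, 17.15 and 15.91 FPKM in knockouts on water and 13.42 and 14.3 FPKM in knockouts on serine. Controls overlapped both knockout groups, while both libraries on serine lay below both knockouts on water. The log2 difference of knockouts on water from controls was 0.15 (SE 0.15). Its activity is set by phosphorylation and location, which these values do not measure.

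Creb3l3 encodes CREBH, a transcription factor of hepatocytes that is held in the endoplasmic reticulum membrane and released by cleavage in fasting. The gene lies at chr10:80920158-80934708 on the minus strand. It was at 218.24 and 241.2 FPKM in controls, 302.7 and 283.85 FPKM in knockouts on water and 237.44 and 313.68 FPKM in knockouts on serine. Knockouts on water lay above the controls, and the 2 libraries on serine were split, with 1 below the higher control and 1 above every other library. Its mean in knockouts on water was 1.277 times that of controls, a log2 difference of 0.35 (SE 0.163) with an adjusted p of 0.2721.

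Ppargc1a encodes PGC-1α, a co-activator that in fasted liver binds HNF4A, FOXO1 and PPARA and drives gluconeogenic and oxidative genes. It lies at chr5:51611592-51725068 on the minus strand. Its level was low in controls, at 3.43 and 2.47 FPKM. It reached 9.81 and 9.54 FPKM in knockouts on water and 7.86 and 11.24 FPKM in knockouts on serine. All 4 knockout libraries lay above both controls, and the 2 knockout groups overlapped. The means were 2.95 ± 0.679 FPKM in controls, 9.675 ± 0.191 FPKM in knockouts on water and 9.55 ± 2.39 FPKM in knockouts on serine (SD, n = 2 each). Ppargc1a rose 3.28-fold in knockouts on water, a log2 change of 1.57 (SE 0.231) with an adjusted p of 0.03934 in limma. It rose 3.237-fold in knockouts on serine against controls, a log2 change of 1.54 with an adjusted p of 0.0454. Apart from Kiss1 it was the only member called in any comparison. The first call was lost when either control or either knockout library on water was left out, with adjusted p-values of 0.2514 without control replicate 1, 0.2309 without control replicate 2, 0.2604 without knockout replicate 1 and 0.1592 without knockout replicate 2. The second call was lost without any single library other than serine replicate 1, with adjusted p-values up to 0.2405, and with median-of-ratios scaling, at 0.06859. The log2 change itself ranged from 1.37 to 1.78 on water and from 1.29 to 1.78 on serine over 15 alternative settings.

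**Figure D1:**
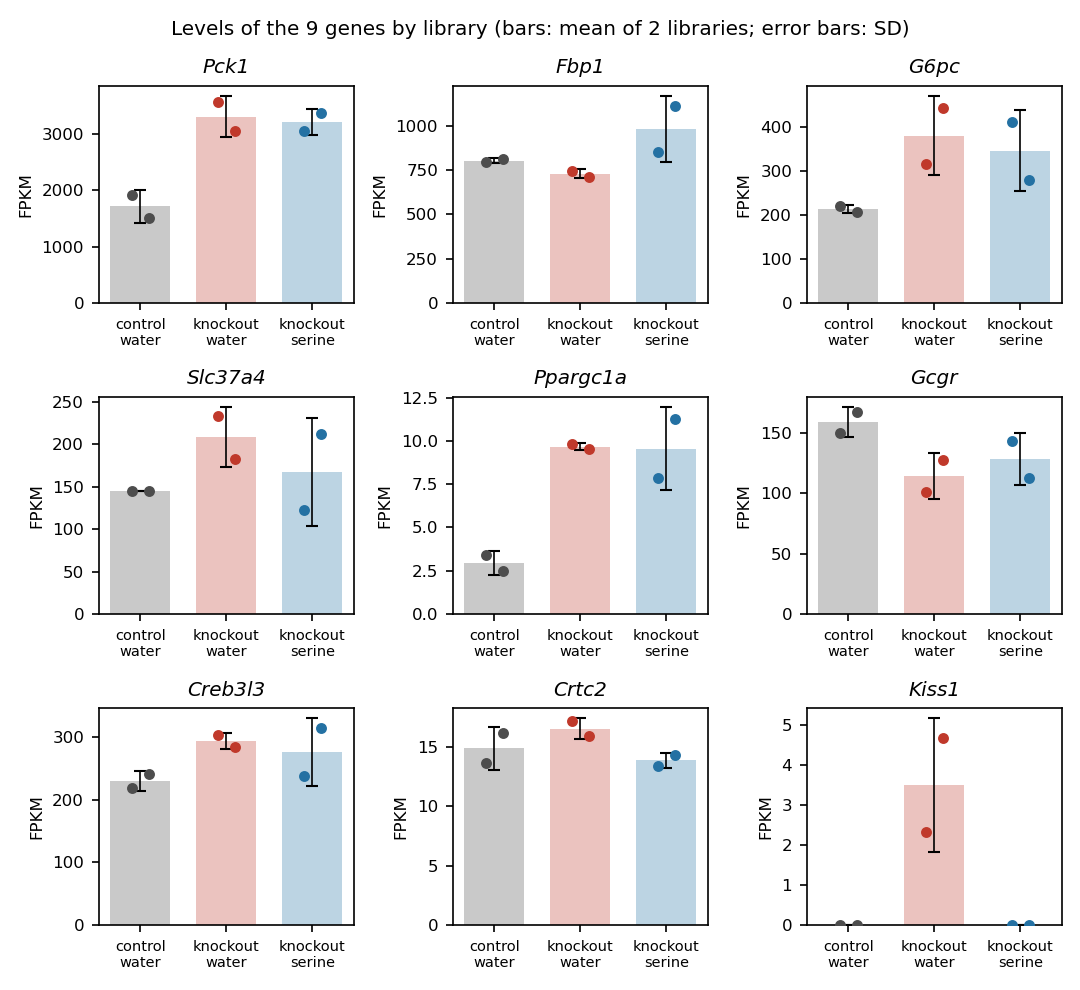
Level of each of the 9 genes in FPKM (vertical axes, linear and starting at 0, 1 scale per panel), with bars for the group mean, error bars for the SD of 2 libraries and points for the libraries. Pck1, G6pc and Ppargc1a were higher in all 4 knockout libraries than in both controls, Gcgr was lower in all 4, and Kiss1 was above 0 only in the 2 knockout libraries on water.

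Pck1, cytosolic phosphoenolpyruvate carboxykinase, turns oxaloacetate into phosphoenolpyruvate and commits carbon to the route. It had the highest level of the 9 genes in every library and lies at chr2:172994841-173001066 on the plus strand. It was at 1919.87 and 1509.7 FPKM in controls, 3554.17 and 3048.11 FPKM in knockouts on water and 3046.99 and 3367.15 FPKM in knockouts on serine. All 4 knockout libraries lay above both controls, and the 2 knockout groups overlapped. The mean of 3301 ± 357.8 FPKM (SD, n = 2) in knockouts on water was 1.925 times the 1715 ± 290.0 FPKM (SD, n = 2) of controls. On the log2 scale the difference was 0.95 (SE 0.172), and its adjusted p of 0.06024 missed the threshold of 0.05. On serine the difference from controls was 0.91, with an adjusted p of 0.05471. With values rescaled to TPM (transcripts summing to the same total in each library), or with genes of at least 5 FPKM only, Pck1 passed the threshold in both comparisons, and its lowest adjusted p-values were 0.04738 and 0.04181.

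Fbp1, fructose bisphosphatase, removes a phosphate from fructose bisphosphate and is the counterpart of phosphofructokinase. It lies at chr13:63012567-63036096 on the minus strand. Its level was 793.65 and 811.9 FPKM in controls, 746.24 and 712.36 FPKM in knockouts on water and 848.5 and 1110.61 FPKM in knockouts on serine. Unlike Pck1 and G6pc, its lowest group was the knockouts on water, and its libraries on serine lay above all others. The 3 groups did not overlap. The mean in knockouts on water was 0.9084 times that of controls, and the mean on serine was 1.343 times that of knockouts on water, a log2 difference of 0.41 with an unadjusted p of 0.03735 and an adjusted p of 0.678 in limma. Leaving out 1 library moved that log2 difference between 0.22 and 0.61.

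G6pc encodes the catalytic subunit of glucose-6-phosphatase, which releases free glucose in the endoplasmic reticulum. It lies at chr11:101258387-101268729 on the plus strand. Controls were at 220.9 and 207.73 FPKM, knockouts on water at 316.75 and 443.65 FPKM and knockouts on serine at 411.47 and 280.69 FPKM. As for Pck1, all 4 knockout libraries lay above both controls, and the spread within each knockout group was wide. The mean of 380.2 ± 89.7 FPKM (SD, n = 2) in knockouts on water was 1.774 times the 214.3 ± 9.31 FPKM (SD, n = 2) of controls, a log2 difference of 0.81 (SE 0.233) with an adjusted p of 0.1262. On serine the ratio to controls was 1.615, with an adjusted p of 0.1413.

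Slc37a4 encodes the transporter that brings glucose-6-phosphate into the endoplasmic reticulum, where the G6pc product acts on it. It lies at chr9:44308149-44314265 on the plus strand. The controls were nearly equal, at 145.4 and 145.11 FPKM, against 233.09 and 182.99 FPKM in knockouts on water. Knockouts on serine were at 122 and 211.97 FPKM, 1 below and 1 above the controls. The 1.432-fold difference of knockouts on water from controls was 0.51 on the log2 scale (SE 0.265), with an adjusted p of 0.3252. For serine against controls, the log2 difference of 0.15 changed sign, to -0.01, with median-of-ratios scaling and, to -0.25, without serine replicate 2.

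**Figure D2:**
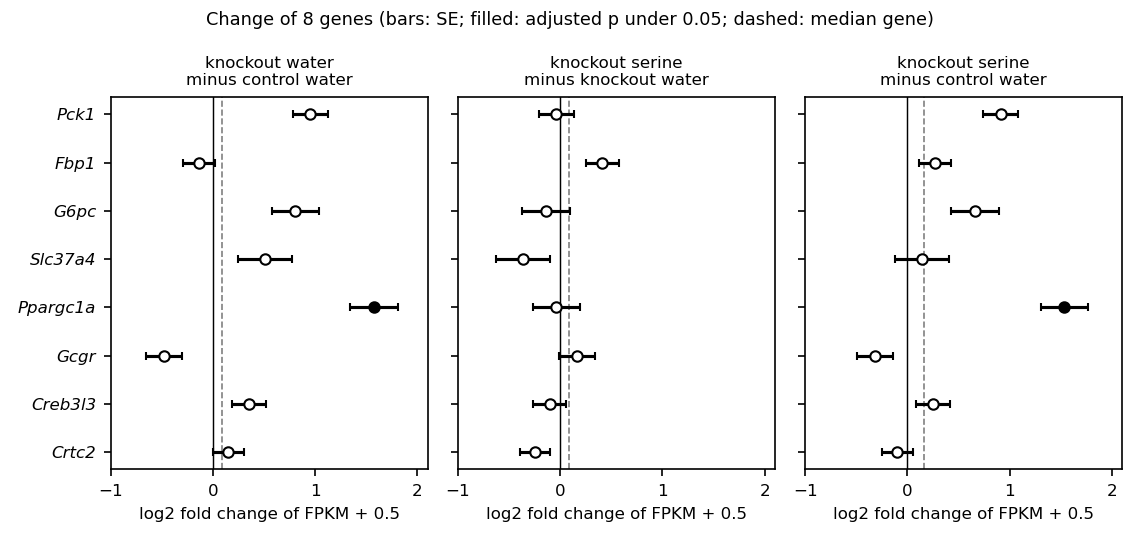
Log2 difference of log2(FPKM + 0.5) between group means for the 8 genes other than Kiss1 (horizontal axis), with bars for the SE, for the 3 comparisons of groups. Ppargc1a had the largest difference in both comparisons of knockouts with controls, at 1.57 on water and 1.54 on serine, and the differences between serine and water in knockouts ran from -0.36 for Slc37a4 to 0.41 for Fbp1.

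Kiss1 encodes kisspeptin, a secreted peptide reported in mice to be made by the liver in response to glucagon and to restrain insulin secretion. It lies at chr1:133249613-133257639 on the plus strand. It was at 2.32 and 4.67 FPKM in knockouts on water and was listed at 0 in the 2 controls and the 2 knockouts on serine. No fold is given against groups listed at 0. The spacing of values puts the 2 readings at about 20.8 and 40.3 fragments. In the GENCODE vM21 annotation (GRCm38), all 779 exonic bases of Kiss1 also belong to 2 models named Gm28040, and 102 of them (13.1%) belong to Golt1a. The longer Gm28040 model was at 6.91 and 8.85 FPKM in controls, 6.96 and 8.37 FPKM in knockouts on water and 11.91 and 12.31 FPKM in knockouts on serine. The sum of Kiss1 and both Gm28040 models was 6.91 and 9.44 FPKM in controls, 9.62 and 14.09 FPKM in knockouts on water and 13.83 and 12.31 FPKM in knockouts on serine. In that sum both knockout groups lay above both controls and overlapped each other. FPKM is scaled to model length, which was 779 bases for Kiss1 and 1465 and 741 bases for the Gm28040 models. A shared fragment therefore adds a different amount to the sum under each model. The sum still depends on how shared fragments were divided, so it cannot decide whether the groups differed at this locus. Kiss1 made up 24.1% and 33.1% of the sum in the knockouts on water. No source used here says how shared fragments were divided among these models, and its part in the values of Kiss1 was not tested. The kisspeptin receptor gene Kiss1r was at 0.16 to 0.46 FPKM in all 6 libraries.

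**Figure D3:**
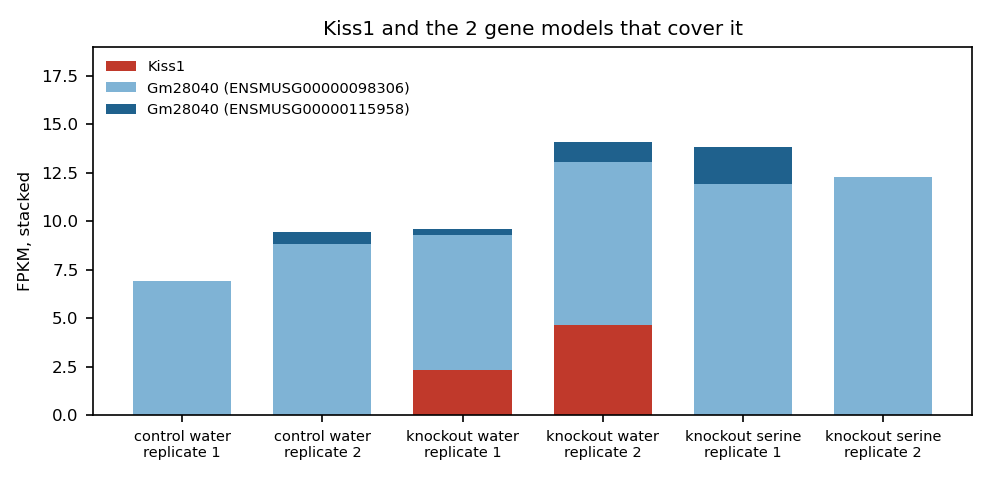
Level in FPKM (vertical axis, linear and starting at 0) of Kiss1 and of the 2 overlapping Gm28040 models, stacked for each of the 6 libraries. The stacks reach 6.91 and 9.44 FPKM in controls, 9.62 and 14.09 FPKM in knockouts on water and 13.83 and 12.31 FPKM in knockouts on serine, and only the knockouts on water hold a Kiss1 segment.

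Read as a set, between knockouts and controls on water 2 of the 9 genes were called higher, Ppargc1a and Kiss1, and 0 were called lower. Over all genes tested, 0.808% were called higher and 0.404% lower. Since Kiss1 passed the filter only through the group in which it was high, its call is no support. In 6 of the 9 genes, or 5 of 8 without Kiss1, both knockout libraries lay above both controls, and in 2, Gcgr and Fbp1, both lay below. Of all genes tested, 34.4% were separated in the higher direction and 20.9% in the lower. The median log2 difference of the 8 genes without Kiss1 was 0.43, beside 0.08 for all genes.

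Between serine and water in knockouts, 0 of the 9 genes were called in either direction, where 0.0% of all genes were called higher and 0.0% lower in limma. Unadjusted p-values under 0.05 were found for 805 of 11134 genes, Fbp1 and Kiss1 among them. Fbp1 was the 1 member with both serine libraries above both on water, and Crtc2 and Kiss1 were the 2 with both below, against 26.9% and 10.9% of all genes. The other 6 overlapped. Pck1, G6pc and Ppargc1a had serine-to-water ratios of 0.9715, 0.9103 and 0.9871. With 2 libraries a group, these intervals are wide: the SE of the log2 difference was 0.172 for Pck1, 0.233 for G6pc and 0.231 for Ppargc1a, and a p above the threshold does not show that serine left them as they were.

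For knockouts on serine against controls, which share the controls with the comparison on water, Ppargc1a was the 1 member called higher and 0 were called lower. Over all genes, 0.853% were called higher and 0.323% lower. Pck1, Fbp1, G6pc and Ppargc1a had both serine libraries above both controls and Gcgr had both below, against 41.5% and 15.5% of all genes. The median gene was shifted by 0.16 on the log2 scale here, and by 0.01 after median-of-ratios scaling or 0.24 after rescaling to TPM. Relative to that median gene, the differences were 1.37 for Ppargc1a, 0.75 for Pck1, 0.50 for G6pc, 0.11 for Fbp1, 0.09 for Creb3l3, -0.02 for Slc37a4, -0.26 for Crtc2 and -0.48 for Gcgr. Scaling also moved the balance of calls over all genes. Against controls, knockouts on water had 90 genes higher and 45 lower as deposited, 61 and 49 with median-of-ratios scaling, and 172 and 54 as TPM. Knockouts on serine had 95 higher and 36 lower, 16 and 20, and 389 and 60.

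The other steps of the route were described through 21 tested genes of 22. Between knockouts and controls on water, 2 were called higher and 0 lower, beside 0.808% and 0.404% of all genes. Both knockout libraries lay above both controls for 11 of the 21 and below for 4, beside 34.4% and 20.9% of all genes, and the median difference was 0.29, beside 0.08. Eno1, enolase, rose from 351.43 and 359.62 FPKM in controls to 616.07 and 629.25 FPKM in knockouts on water, a log2 change of 0.81 (SE 0.124, adjusted p 0.04447 in limma). Pgam1, phosphoglycerate mutase, rose from 106.15 and 107 FPKM to 216.15 and 195.05 FPKM, a log2 change of 0.94 (SE 0.147, adjusted p 0.04744). Both enzymes work on the phosphoenolpyruvate side of Gapdh, between it and Pck1. Their neighbour Pgk1, phosphoglycerate kinase, was at 221.1 and 189.33 FPKM in controls and at 335.24 and 343.82 FPKM in knockouts on water, with an adjusted p of 0.06006.

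On serine, 3 of these 21 genes were called higher against controls and 0 lower, beside 0.853% and 0.323% of all genes. For 14 both serine libraries lay above both controls and for 2 below, beside 41.5% and 15.5%, and the median was 0.50 beside 0.16 for all genes. Eno1 was at 653.3 and 746.16 FPKM, a log2 change of 0.97 with an adjusted p of 0.03702 in limma. Pgam1 was at 207.44 and 259.48 FPKM, a change of 1.12 with an adjusted p of 0.03876. Mdh2, mitochondrial malate dehydrogenase, was at 157.29 and 153.69 FPKM in controls and at 260.01 and 269.12 FPKM on serine, a change of 0.77 with an adjusted p of 0.0454. Between serine and water in knockouts 0 of the 21 were called. There 8 were separated higher and 0 lower, beside 26.9% and 10.9% of all genes. The smallest p there belonged to Pck2, the mitochondrial form of Pck1, which was at 1.36 and 1.5 FPKM on water and 2.02 and 3.06 FPKM on serine (adjusted p 0.6831).

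Glucagon and cyclic AMP signalling was described through 29 tested genes of 32, among them G protein, adenylyl cyclase, protein kinase A and phosphodiesterase genes. In each of the 3 comparisons 0 were called in either direction. Over all genes, 0.808% were called higher and 0.404% lower on water, and 0.853% and 0.323% for serine against controls. Between serine and water 0.0% were called. On water 13 of the 29 were separated higher and 3 lower, beside 34.4% and 20.9% of all genes. For serine against controls 15 were separated higher and 1 lower, beside 41.5% and 15.5%. Serine against water separated 8 higher and 2 lower, beside 26.9% and 10.9%. The median differences were 0.20 for knockouts against controls on water, 0.12 for serine against water and 0.34 for serine against controls. Over all genes tested the medians were 0.084, 0.085 and 0.163 in the same order. The smallest p between knockouts and controls on water belonged to Pde4d, a phosphodiesterase that breaks down cyclic AMP, which was at 1.71 and 1.11 FPKM in controls and at 3.87 and 3.4 FPKM in knockouts (adjusted p 0.07584). Next was Sik1, a salt-inducible kinase that is itself induced by cyclic AMP and inhibits Crtc2, at 4.88 and 5.82 FPKM against 9.89 and 8.1 FPKM (adjusted p 0.1016). Pde4a, another phosphodiesterase, was at 1.3 and 0.81 FPKM in controls, 2.87 and 1.78 FPKM in knockouts on water and 3.67 and 4.6 FPKM on serine, with an adjusted p of 0.05471 for serine against controls.

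Targets of cyclic AMP and fasting were described through 16 tested genes of 18. On water 1 was called higher and 0 lower, beside 0.808% and 0.404% of all genes. There 11 differences were positive and 5 negative, down to -1.25. Separated higher were 9 and lower 1, beside 34.4% and 20.9%. For serine against controls 1 was called higher and 0 lower, beside 0.853% and 0.323%. There too 11 were positive and 5 negative, down to -1.46. Separated higher were 10 and lower 4, beside 41.5% and 15.5%. Igfbp1, a secreted binding protein of insulin-like growth factors that insulin represses, was the 1 gene called between knockouts and controls on water. It rose from 242.29 and 215.47 FPKM to 1307.6 and 635.25 FPKM, a log2 change of 1.99 (SE 0.319, adjusted p 0.04821 in limma). Its libraries on serine, at 478.51 and 554.02 FPKM, lay below both on water and above both controls, with an adjusted p of 0.6787 for serine against water. Nr4a1, an orphan nuclear receptor that cyclic AMP induces at once, was at 0.8 and 1.99 FPKM in controls, 5.63 and 8.26 FPKM in knockouts on water and 8.69 and 8.3 FPKM on serine. It was called only for serine against controls, with a log2 change of 2.32 and an adjusted p of 0.0454, and its adjusted p on water was 0.05464. Between serine and water 0 of the 16 were called, beside 0.0% of all genes. There 3 were separated higher and 5 lower, beside 26.9% and 10.9%. The medians of the 16 genes were 0.23, -0.10 and 0.46 in the comparisons of knockouts with controls on water, serine with water, and serine with controls. Those of all genes tested were 0.084, 0.085 and 0.163.

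Transcription factors and co-factors of gluconeogenic genes numbered 25, all tested, with 0 called in each comparison and medians of 0.08, -0.01 and 0.11 in the same order. Over all genes the medians were 0.084, 0.085 and 0.163. On water 0.808% of all genes were called higher and 0.404% lower, between serine and water 0.0%, and for serine against controls 0.853% and 0.323%. On water 11 of the 25 were separated higher and 9 lower, beside 34.4% and 20.9% of all genes. For serine against controls 10 were separated higher and 6 lower, beside 41.5% and 15.5%. Serine against water separated 4 higher and 3 lower, beside 26.9% and 10.9%. Nr0b2, the orphan receptor SHP that represses gluconeogenic genes, was at 38.74 and 28.63 FPKM in controls, 1.79 and 6.26 FPKM in knockouts on water and 10.49 and 6.16 FPKM on serine. Controls lay above all knockouts, and the adjusted p on water was 0.05225. Cebpa, a factor needed for the hepatic expression of Pck1 and G6pc in mice, was at 156.69 and 166.73 FPKM in controls, 91.56 and 111.67 FPKM in knockouts on water and 149.8 and 172.74 FPKM on serine. Knockouts on water lay below both other groups, which overlapped. Its adjusted p was 0.08094 against controls and 0.6389 for serine against water, where the unadjusted p was 0.003476. Esrra, the nuclear receptor ERRα that PGC-1α binds and induces, was at 21.81 and 24.51 FPKM in controls, 59.63 and 40.04 FPKM on water and 49.74 and 75.92 FPKM on serine (adjusted p 0.1005 and 0.05471 against controls).

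Of 7 described targets of CREBH, all tested, 1, Cidec, was called higher between knockouts and controls on water and 0 lower. Over all genes 0.808% were called higher and 0.404% lower. Separated on water were 4 higher and 1 lower, beside 34.4% and 20.9% of all genes. For serine against controls 0 were called, beside 0.853% and 0.323%, and between serine and water 0, beside 0.0%. Separated for serine against controls were 5 higher and 1 lower, beside 41.5% and 15.5%. Serine against water separated 1 higher and 1 lower, beside 26.9% and 10.9%. Cidec, a protein of lipid droplets, rose from 68.82 and 87.5 FPKM to 198.25 and 186.63 FPKM, a log2 change of 1.30 (SE 0.184, adjusted p 0.03703 in limma). On serine it was at 139.71 and 183.77 FPKM, above both controls. Apoa4, an apolipoprotein of the same list, lay the other way, at 2391.93 and 2837.92 FPKM in controls and 955.14 and 1580.52 FPKM in knockouts on water (adjusted p 0.1726). The median of the 7 was 0.43 on water, -0.10 between serine and water and 0.87 between serine and controls. Over all genes tested the medians were 0.084, 0.085 and 0.163.

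The calls of these listed genes depended on single libraries and on the settings of the fit. On water, those of Eno1, Pgam1 and Cidec were lost without either control, with adjusted p-values of 0.2037 to 0.2657, and without either knockout library on water, at 0.1477 to 0.2605. Igfbp1 was lost without either control, at 0.2692 and 0.2514, and without knockout replicate 1, whose level was the highest, at 0.108, but not without knockout replicate 2, at 0.03202. It was also just above the threshold without serine replicate 1 or 2, at 0.05919 and 0.05851. On serine, Eno1 and Pgam1 stayed under the threshold only without serine replicate 1, and Mdh2 and Nr4a1 lost their calls without any 1 of the 6 libraries, at 0.05348 to 0.2405. All 8 of these calls were lost with median-of-ratios scaling (0.05333 to 0.07701), without a filter on low values (0.111 to 0.1403), without a variance trend (0.07271 to 0.08848) and with the replicate number as a block (0.08342 to 0.1095). With only the 4 libraries compared, the serine calls of Eno1, Pgam1, Mdh2 and Nr4a1 were lost (0.1018 to 0.1057). The call of Igfbp1 on water was lost too (0.05931), while those of Eno1, Pgam1 and Cidec on water stayed. With TPM all 8 were made. The directions stayed the same under all 15 settings.

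**Figure D4:**
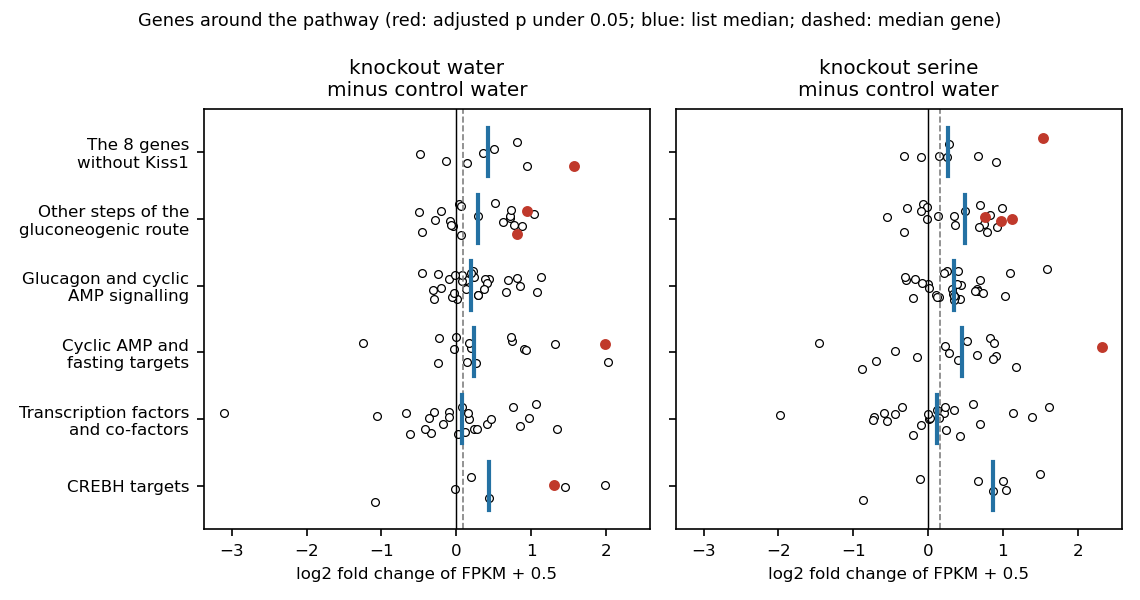
Log2 difference of log2(FPKM + 0.5) for each tested gene (points) of the 8 genes without Kiss1 and of 5 lists from the same pathway, for knockouts on water (left) and knockouts on serine (right) against controls; short bars mark list medians and the dashed line the median of all genes tested. The medians on water run from 0.08 for transcription factors to 0.43 for the 8 genes and the CREBH targets, beside 0.08 for all genes.

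Gluconeogenic enzymes are more abundant in periportal than in pericentral hepatocytes. The 7 periportal markers summed to 4564 and 4218 FPKM in controls, 5688 and 5344 FPKM in knockouts on water and 5022 and 6907 FPKM on serine, so that all 4 knockout libraries lay above both controls. Ass1, an enzyme of the urea cycle, made up the largest part of that sum, and on water 3 of the 7 markers (Ass1, Hal and Sds) lay above both controls in both knockout libraries, 3 (Pigr, Gls2 and Cyp2f2) lay below and 1 overlapped. Sds also stands in the list of cyclic AMP and fasting targets, so the lists are not separate readouts. The pericentral sum was 5159 to 6457 FPKM and overlapped between groups. The part of this in the values of Pck1, G6pc and Slc37a4 was not tested.

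The genes with the most similar pattern were sought among 6945 tested genes of at least 5 FPKM by the Pearson correlation of log2(FPKM + 0.5) over the 6 libraries. These coefficients reflect differences between the 3 groups as well as differences between libraries of the same group, and are descriptions. Ppargc1a had 769 genes above 0.9, led by Hmox1 (0.9998), Pofut2 (0.9947) and Ash2l (0.9944). Pck1 had 683, led by Mrpl13 (0.9975), Acot12 (0.9966) and Dot1l (0.9961). For G6pc there were 117, led by Nek6 (0.9986), Ppara (0.9894) and Polr3a (0.9847).

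The remaining genes had fewer or different neighbours. Gcgr had 256 above 0.9, led by Gstk1 (0.9965), Itm2b (0.994) and Emc6 (0.9904). Creb3l3 had 157, led by Tmem258 (0.9987), Hamp (0.9858) and Tubgcp6 (0.9829). Hamp is also in the list of CREBH targets. Fbp1 had 90, led by Rfxank (0.9962), Cstb (0.9929) and Igfbp4 (0.9926), and Slc37a4 had 61, led by Manf (0.9964), Nlrc5 (0.9846) and Psme3ip1 (0.9831). Kiss1 had 23, led by Mfsd2a (0.9856), Rps6kb1 (0.9791) and Srgn (0.9641). Crtc2 had 9, led by Cyp27a1 (0.9651), Skap2 (0.9601) and Poldip3 (0.9596). No 2 of the 9 genes shared a leading neighbour.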

How the data were processed

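Liver RNA of 6 pools was sequenced. Samples were grouped by title, genotype and treatment. The authors deposited FPKM values per gene, which were used as given. Per the submitters' processing notes, bcl2fastq, HISAT2 2.0.5 and GRCm39 were used. Which tool made the FPKM values, with which gene models and whether by strand, is not given in the sources used here. Whole fragments were sought in single-exon genes of 500 to 1500 bases: 85.1% to 90.0% of low values were whole multiples of a step within 0.03, where chance gives 17.3% to 18.9%. The best fit of that check took 290 to 320 bases off each length.

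Annotated genes with a mean of at least 1 FPKM were tested (11134), and 295 unannotated rows were left out. In limma 3.58.1 (R 4.3.3, eBayes with trend), log2(FPKM + 0.5) was modelled by 3 group means over the 6 libraries, with 3 residual and 3.465 prior degrees of freedom. Two-sided p-values were adjusted by Benjamini-Hochberg over the 11134 genes tested for each comparison, and 0.05 was the threshold. With 2 libraries against 2, an exact permutation test of 1 gene cannot go below 0.333. The fit was run on simulated data with known changes, in which all genes had the same spread. That simulation does not assess the calls made here. The fold changes of low genes are understated by the pseudocount. Groups were called separated where both libraries of 1 lay above both of the other.

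The 9 genes, the pathway lists and the marker lists were chosen with earlier results of these data known. Named were the 9 genes, Gapdh, Kiss1r and genes overlapping the 9. Of each pathway list, genes were named among those past the threshold and the 4 with the smallest p in each comparison, and for each of the 9 the 3 most correlated genes. Sox9 and the periportal markers were named after their values were seen, and Tat because it stands in a marker list and a target list. Alternatives covered scaling, filter, pseudocount, variance trend, the libraries fitted, a replicate block and each library left out.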

Additional observations from a re-analysis of the deposited data

How the results depend on the processing

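Over 15 alternatives, the 8 genes without Kiss1 kept their direction in 120 of 120 values for knockouts against controls on water, in 111 of 120 for serine against water and in 117 of 120 for serine against controls. Those that changed sign for serine against water came from leaving out 1 library and lay between -0.009 for Gcgr and 0.207 for Ppargc1a. On water 2 of the 9 genes were called as reported. The count was 3 as TPM (Pck1, Ppargc1a and Kiss1), 2 with genes of at least 5 FPKM (Pck1 and Ppargc1a), 0 without a filter on low values, 1 without a variance trend (Kiss1), 1 with a pseudocount of 0.1 (Ppargc1a) and 0 with the replicate number as a block, and 0 to 2 with 1 library left out. It was 0 without either control or either knockout library on water. For serine against controls, 1 gene was called as reported. The count was 2 as TPM and 2 with genes of at least 5 FPKM (Pck1 and Ppargc1a in each), and 0 with median-of-ratios scaling, without a filter, without a variance trend, with only the 4 libraries compared and with the replicate block. It was 0 to 1 with 1 library left out, and 1 only without serine replicate 1. For serine against water it was 0 under all 15. The cause was not tested. Ppargc1a was past the threshold under 8 of 15 alternatives on water (adjusted p 0.03489 to 0.2604) and under 5 of 15 on serine (0.03412 to 0.2405), and Pck1 under 2 of 15 in each (0.04738 to 0.3131 and 0.04181 to 0.2417).

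Groups share replicate numbers that nothing in the labels ties to a common batch. Deviations of same-numbered libraries correlated at 0.028 (controls and knockouts on water), 0.039 (controls and serine) and -0.197 (the 2 knockout groups), so the numbers were not taken as pairs. With the block, adjusted p for Ppargc1a on water was 0.1043, and the 8 calls in the pathway lists were lost, as they were without a filter, without a variance trend and with median-of-ratios scaling. Over all genes, the block left 3 higher and 1 lower on water, and 2 and 2 for serine against controls. On water, no filter left 1 and 1, and no variance trend left 10 and 6. The readings of Kiss1 rest on about 20.8 and 40.3 fragments.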
